A study of Mus musculus with 2 samples.

Results

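The collagen chains are the 44 protein-coding mouse genes whose symbol has the form Col, a type number, the letter a and a chain number, out of 55487 genes in the deposited table. Each symbol matched 1 Ensembl identifier in the GENCODE M21 annotation of GRCm38. The table gives mRNA levels in apoptotic osteoblasts from old mice and from young mice, with 1 library per age. Both groups were made in the same way, per the labels' protocols: cells that grew out of bone pieces were passaged 3 times as marrow stromal cells, kept 3 days in osteogenic medium, and exposed to ultraviolet light for 0.5 h, after which over 90% took up Trypan Blue. The treatment label reads day 5 for the old library and day 0 for the young, so day and age cannot be told apart, and the labels give no strain, sex, age in months or number of animals.

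Collagens are the main structural proteins of bone and of most connective tissue. Their chains fold as trimers into a triple helix, in which glycine, the smallest amino acid, recurs with a period of 3 residues. Fibrillar collagens assemble into the fibrils that osteoblasts lay down and mineralise, network-forming collagens build sheets such as basement membranes, and the remaining classes coat fibrils, anchor cells or span the cell membrane.

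The glycine repeat is what the members share in sequence. Its longest unbroken run was 216 to 344 triplets in the fibrillar chains, and 23 to 113 in the other chains with a complete coding sequence, whose classes overlapped. The stretches below are the first 24 codons of the longest unbroken repeat in Col1a1 (codons 168 to 191), Col4a1 (codons 43 to 66) and Col15a1 (codons 629 to 652), from the longest GENCODE coding transcript of each, with the recurring glycine codon (GGN) in capitals.
Col1a1: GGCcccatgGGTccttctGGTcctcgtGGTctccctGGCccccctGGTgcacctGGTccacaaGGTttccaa
Col4a1: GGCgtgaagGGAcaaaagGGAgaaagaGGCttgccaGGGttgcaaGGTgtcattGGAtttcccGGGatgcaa
Col15a1: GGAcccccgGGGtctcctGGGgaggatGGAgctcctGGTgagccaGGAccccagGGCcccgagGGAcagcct
These genes lie on chromosomes 11, 8 and 4. In Col1a1 the repeat ran unbroken for 338 triplets, whereas in Col4a1 the longest run was 40 triplets although 450 of its glycine codons had another glycine codon 3 codons away, and in Col15a1 it was 30. Among the 43 chains with a complete coding sequence, glycine codons made up between 9.17% (Col12a1) and 31.2% (Col9a3) of codons, with a median of 24.3%, against a median of 6.22% in 10835 other protein-coding genes that reached 1 FPKM on average. Col6a3 had no complete coding sequence in the transcript used.

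FPKM is the number of fragments scaled to the length of the gene and to the size of the library. The old library held 18114336 reads and the young 16333396, worked out from the steps in the FPKM values. Of the 44 chains, 26 averaged at least 1 FPKM between the libraries and are called measured here, among them all 11 fibrillar chains. Col9a3 was just inside that limit with a mean of 1.28 FPKM, and Col7a1 was just outside it with 0.896. Bone lineage genes were present, with Runx2 at 72.7 FPKM in the old library and 92.1 in the young, and Sp7 at 28.9 and 55.5, but the osteoblast markers Alpl (3.28 in old and 2.78 in young) and Bglap (6 reads in old and 3 in young) were scarce. Osteoblast markers summed to 1866 FPKM in the old and 398 in the young library, most of it Spp1 (1732 in old and 224 in young), and the part of this difference in the collagen values was not tested. Of 5 leukocyte, 5 endothelial and 4 adipocyte markers 1 was measured, Cd68 at 4.36 FPKM in the old and 4.51 in the young library, and Ptprc, the pan-leukocyte marker, had 0 reads in old and 1 in young, while Adgre1 and Itgam had none in either. The most abundant endothelial marker was Pecam1, at 0.134 FPKM in old and 0.322 in young, and the most abundant adipocyte marker was Fabp4, with 8 reads in old and 0 in young. The contractile marker Acta2 was at 1171 FPKM in old and 1404 in young. Of the other muscle and pericyte markers, Des was at 1.71 FPKM in old and 1.11 in young. Myh11 had 2 reads in old and 0 in young, and Rgs5 had 2 in each. The tendon-associated Fmod was at 592 FPKM in old and 796 in young. Of the other tendon markers, Mkx was at 14.2 and 11.5 FPKM and Scx at 6.06 and 5.60, while Tnmd had 0 reads in both.

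No difference has a replicate check, and no test was run. The range in brackets after a ratio of FPKM, old over young, is its exact 95% interval from the read numbers and covers counting error only. A chain was called at 2-fold or more on the log2 scale of FPKM + 1, which understates the differences of low genes.

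The collagens of the old library held less type I and more type VI mRNA than those of the young. Summed over the 44 chains, the level was 17648 FPKM in the old library and 20462 in the young, a ratio of 0.862. Chains of type I, the collagen of bone matrix, made up 70.4% of that sum in the old library and 78.4% in the young. Without Col1a1 and Col1a2 the order turned round, to 5223 FPKM in the old and 4412 in the young, a ratio of 1.18. As reads, collagens took 4.08% of the old library (exact Clopper-Pearson interval 4.07% to 4.09%) and 4.56% of the young (4.55% to 4.57%). In bulk RNA, fewer cells of a type and less RNA per cell cannot be told apart.

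**Figure D1:**
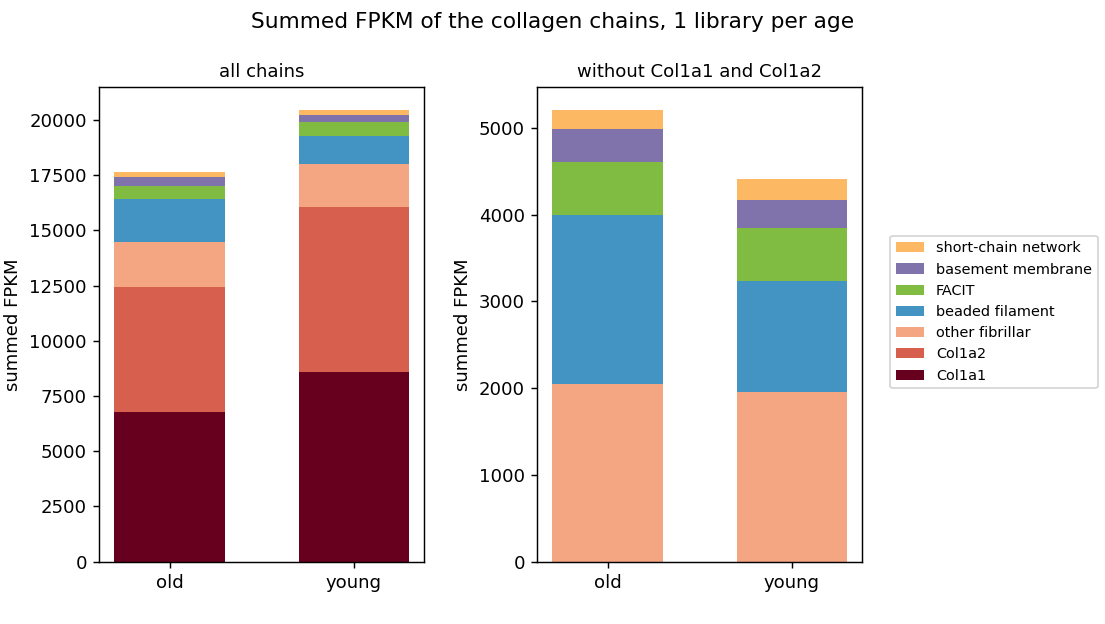
Stacked bars give the summed FPKM of the collagen chains in the old and the young library, for all chains (left) and without Col1a1 and Col1a2 (right); multiplexin, transmembrane and anchoring chains are too low to see and are left out. The full bar is lower in old (17648 FPKM) than in young (20462 FPKM), and the bar without type I is higher in old (5223 against 4412 FPKM).

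By the 2-fold call, 2 of the 26 measured chains were higher in the old library, Col15a1 and Col18a1, and 1 was lower, Col11a2. Over all 12561 genes measured, 1.97% were called higher and 0.868% lower, 2.84% together. The median log2 ratio of the measured chains was 0.07, with 14 above 0 and 12 below, against −0.07 for all genes. The counting interval lay above 1 for 13 chains, below 1 for 10 and held 1 for 3 (Col8a2, Col11a1 and Col9a3), and over 12554 genes it lay above 1 for 20.6% and below 1 for 33.5%. Those genes were not matched to the chains for read number, and more reads give narrower intervals. Col5a1, with 42779 reads over both libraries, counts as above 1 at a ratio of 1.03, so these counts do not set the collagens apart. The 3 called chains were low, with 38 to 418 reads in a library, and with a pseudocount of 5 FPKM in place of 1 no chain was called in either direction. Col24a1 was the chain nearest to the call among those above 0, at a log2 ratio of 0.77, and Col18a1 was just inside at 1.08.

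**Figure D2:**
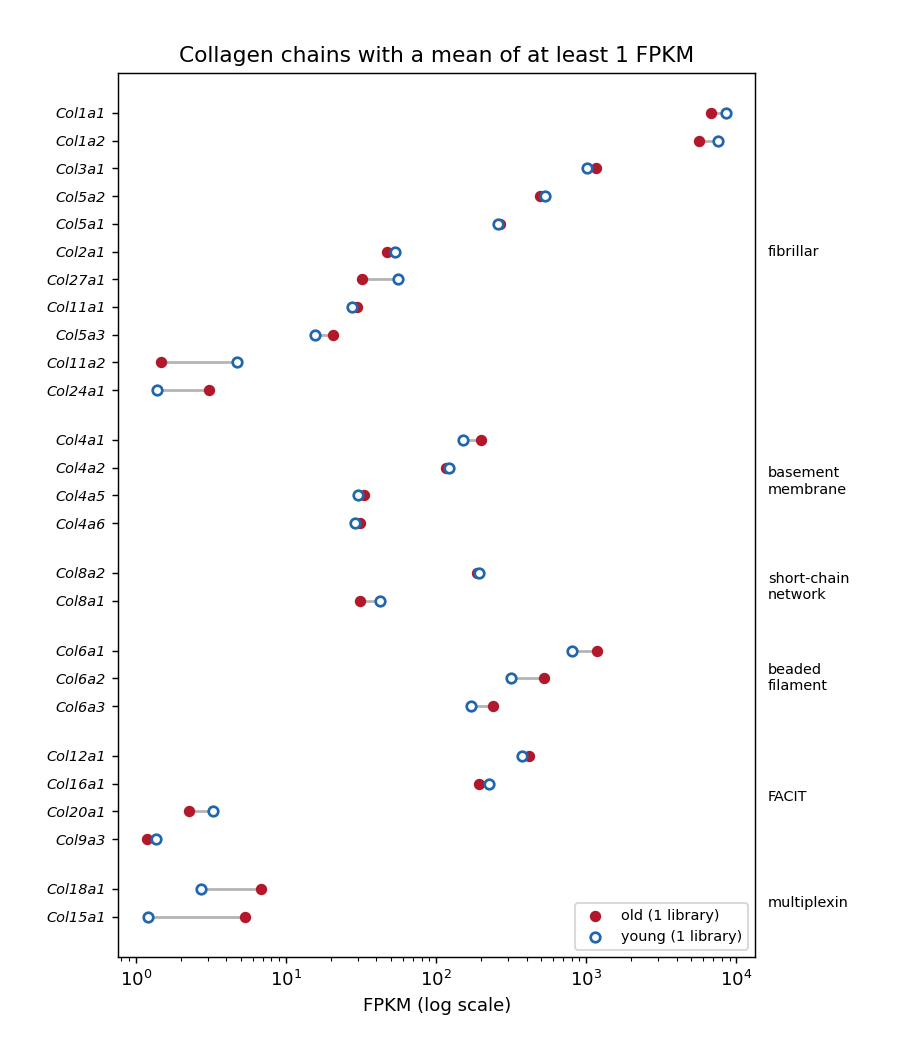
Each row is a measured collagen chain, grouped by class, with its FPKM on a log scale in the old library (filled) and the young (open). Levels span from about 1 FPKM (Col9a3, 1.19 in old and 1.36 in young) to the level of Col1a1 (6788 in old and 8568 in young), and open points lie to the right of filled ones for type I and to the left for type VI and the multiplexins.

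The fibrillar class was lower as a sum, at 14471 FPKM in the old library against 18008 in the young, a ratio of 0.804, though its members lay on both sides of an even ratio. Col1a1 and Col1a2 made up 12425 FPKM of that sum in old and 16051 in young, so type I set its direction. Of 11 measured chains 5 had log2 ratios above 0 and 6 below, with a median of −0.11. Col1a1 (ENSMUSG00000001506, chromosome 11, 94936224 to 94953042, GRCm38), which encodes the chain that outnumbers its partner in type I collagen, was at 6788 FPKM in the old and 8568 in the young library, on 219005 and 249251 reads, a ratio of 0.792 [0.788 to 0.797]. Col1a2 (ENSMUSG00000029661, chromosome 6, 4504814 to 4541544), its partner, was at 5636 FPKM in the old and 7482 in the young library, a ratio of 0.753 [0.749 to 0.757]. Both were the highest collagens of either library, both were lower in old, and 14.4% and 9.36% of 10964 measured protein-coding genes had ratios below theirs.

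Type III and type V collagen copolymerise with type I and govern fibril width. Col3a1, the type III chain, was at 1155 FPKM in the old and 1008 in the young library, a ratio of 1.15 [1.13 to 1.16], so that it was higher where type I was lower. Relative to Col1a1, Col3a1 stood at 0.170 in old and 0.118 in young, and the first ratio was 1.45 times the second [1.42 to 1.47]. Of the type V chains, Col5a1 was at 266 FPKM in old and 259 in young (ratio 1.03 [1.01 to 1.05]) and Col5a2 at 492 and 532 FPKM (ratio 0.925 [0.909 to 0.941]), both close to even. Col5a3, a rarer type V chain, was at 20.4 FPKM in old and 15.5 in young, a ratio of 1.32 [1.23 to 1.42].

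Fibrillar chains known from cartilage gave unlike values. Col2a1, the main chain of cartilage fibrils, was at 46.8 FPKM in the old and 53.3 in the young library (ratio 0.879 [0.819 to 0.943]), and Col11a1, which joins it there, at 29.7 and 27.7 FPKM (ratio 1.07 [0.994 to 1.16]). Col11a2 (ENSMUSG00000024330, chromosome 17, 34039437 to 34066685), the other type XI chain, was at 1.48 FPKM on 94 reads in the old and 4.73 FPKM on 271 reads in the young library, a ratio of 0.313 [0.245 to 0.397] and a log2 ratio of −1.21. It was the single fibrillar chain called, and 0.182% of measured protein-coding genes lay below it. The chondrocyte markers summed to 53.0 FPKM in old and 47.7 in young, nearly all of it Sox9 (51.0 and 44.9), while Acan, the cartilage proteoglycan, had 0 reads in both. Of the other chondrocyte markers, Comp was at 1.05 FPKM in old and 1.41 in young. Cnmd had 9 reads in old and 14 in young, Hapln1 21 and 20, and Matn1 1 and 0. The part of chondrocytes in these values was not tested.

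Col27a1 and Col24a1 encode fibrillar chains with a shorter unbroken helix, with repeats of 217 and 216 triplets, and they differed in opposite directions. Col27a1 was at 32.0 FPKM in the old and 55.5 in the young library on 2517 and 3931 reads, a ratio of 0.577 [0.549 to 0.607], and 1.05% of measured protein-coding genes lay below its log2 ratio of −0.77. Col24a1, found in developing bone, was at 3.06 FPKM on 137 reads in the old and 1.39 FPKM on 56 reads in the young library, a ratio of 2.21 [1.61 to 3.07] that fell short of the call on the log2 scale of FPKM + 1.

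Type VI collagen forms beaded filaments around cells, and its measured chains were all higher in the old library. Col6a1 (ENSMUSG00000001119, chromosome 10, 76708792 to 76726168) was at 1186 FPKM in old and 797 in young, a ratio of 1.49 [1.47 to 1.51]. Col6a2, its neighbour on chromosome 10 with 85161 bases between the genes, was at 522 FPKM in old and 315 in young, a ratio of 1.66 [1.63 to 1.68]. Col6a3, on chromosome 1, was at 240.3 FPKM in old and 171 in young, a ratio of 1.41 [1.38 to 1.44].

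All 3 ratios lay at or above the 93.6th percentile of measured protein-coding genes, and none reached 2-fold. As a class, type VI chains summed to 1948 FPKM in the old library and 1283 in the young, a ratio of 1.52, and their part of the collagen sum was 11.0% in old and 6.27% in young. By FPKM, Col6a1 stood in position 3 among the collagens in old and 4 in young, with Col3a1 in the other place. With the longest coding transcript as length, chosen after the data were seen, Col6a1 was above Col3a1 in both libraries, at 727 against 375 in old and 488 against 328 in young. The chains that can replace Col6a3 in type VI were scarce, with 12 reads in old and 4 in young for Col6a4, 0 and 1 for Col6a6, and none in either for Col6a5.

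**Figure D3:**
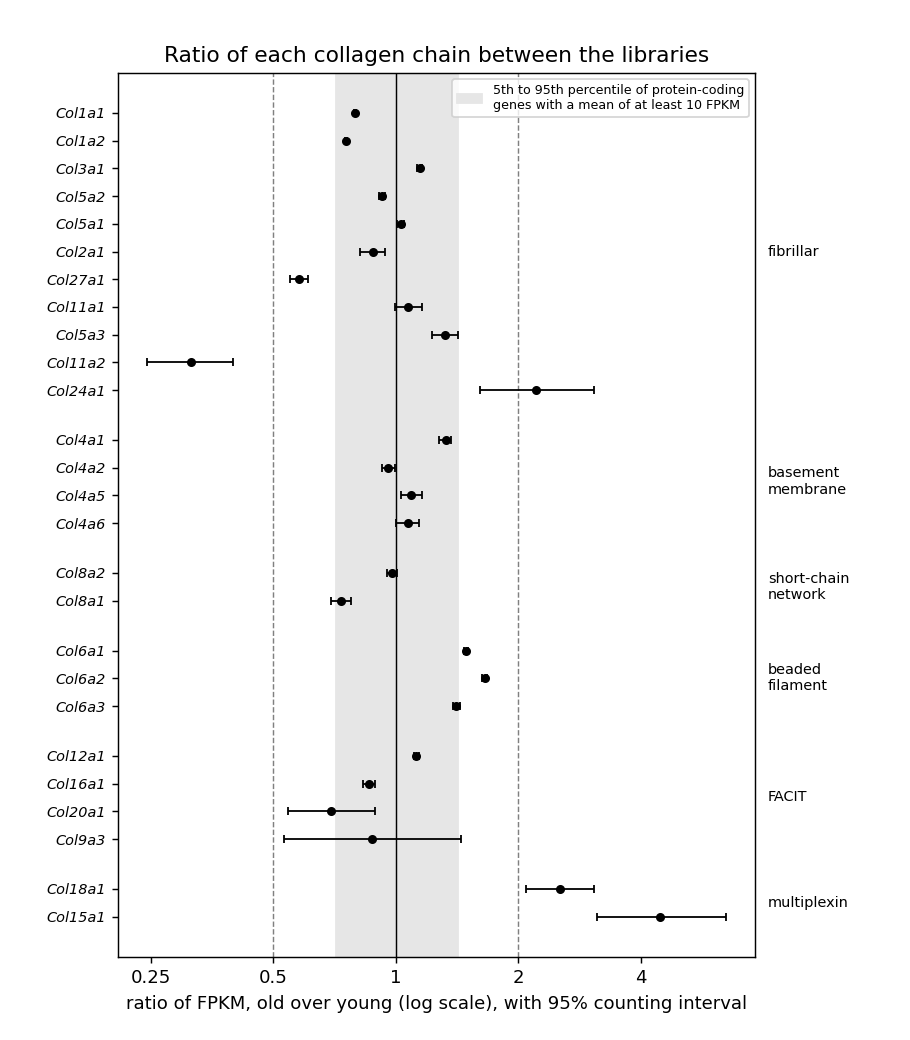
Each row gives the ratio of FPKM, old over young, of a measured collagen chain on a log scale, with its 95% counting interval, and dashed lines mark 2-fold in linear FPKM, while the call uses FPKM + 1. The band spans the 5th to 95th percentile of protein-coding genes averaging at least 10 FPKM (0.712 to 1.42). Among chains that reach that level, Col6a1 and Col6a2 lie to its right at 1.49 and 1.66, and Col27a1 to its left at 0.577. Chains under 10 FPKM, which the band does not describe, also lie outside it: Col15a1 (4.46), Col18a1 (2.53) and Col24a1 (2.21) to the right, Col11a2 (0.313) and Col20a1 (0.695) to the left.

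Type IV collagen builds the basement membrane network, and its chains are encoded by head-to-head gene pairs. Col4a1 and Col4a2, which together form the common trimer, lie on opposite strands of chromosome 8 with start sites 21 bases apart. Col4a1 was at 200.3 FPKM in the old and 151 in the young library, a ratio of 1.33 [1.28 to 1.37]. Col4a2 was at 116 FPKM in old and 121 in young, a ratio of 0.958 [0.923 to 0.995], so the pair did not differ alike, although the log2 ratio of Col4a2 was 0.00 when the median of all genes was set to 0. The ratio of Col4a1 to Col4a2 was 1.73 in old [1.67 to 1.79] and 1.25 in young [1.20 to 1.30]. The pair on chromosome X, Col4a5 (33.0 FPKM in old and 30.2 in young) and Col4a6 (31.0 and 28.9), had a ratio of Col4a5 to Col4a6 of 1.07 in old and 1.05 in young. The remaining pair, Col4a3 and Col4a4, known from kidney and lung, had 0 reads in old and 1 in young for Col4a3 and no reads in either library for Col4a4.

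Ratios between chains, and sums over chains, depend on the length used, while the ratio of a single chain between the libraries does not. Judged from the steps in the values, since the submitters do not state it, the deposited FPKM used the average length over all transcripts annotated to a gene. That average includes short fragments, and the longest coding transcript was 1.03 to 3.33 times as long over the measured chains. With that longer length, chosen after the data were seen, Col1a1 over Col1a2 was 0.846 in old and 0.804 in young, in place of 1.20 and 1.15, so which of the 2 is higher turned round. Col4a1 over Col4a2 was then 1.33 in old and 0.961 in young. The type I protein holds more of the Col1a1 chain than of the Col1a2 chain.

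**Figure D4:**
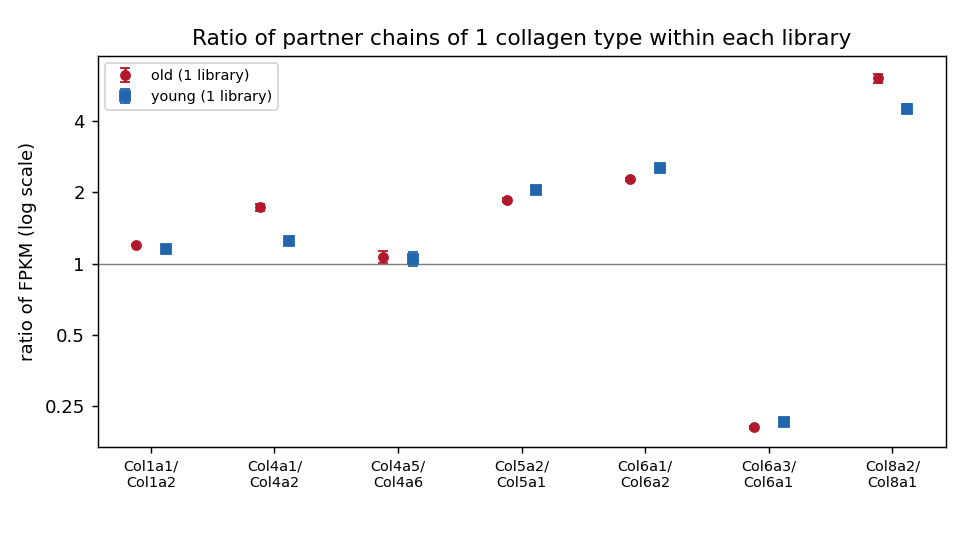
Points give the ratio of FPKM between partner chains of 1 collagen type within the old and the young library, on a log scale, with 95% counting intervals. The largest shifts between the libraries are for Col4a1 over Col4a2 (1.73 in old and 1.25 in young) and Col8a2 over Col8a1 (6.06 in old and 4.52 in young).

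Short-chain collagens form hexagonal lattices. Col8a2 was at 188 FPKM in the old and 192 in the young library, a ratio of 0.982 [0.952 to 1.01] whose sign on the log2 scale also turned with the scaling (−0.03 as deposited and 0.04 centred on the median). Col8a1, its partner in type VIII, was at 31.1 FPKM in old and 42.5 in young, a ratio of 0.733 [0.693 to 0.775]. Col10a1, the marker of hypertrophic chondrocytes, had 1 read in old and 0 in young, where a count of 0 allows up to 0.0587 FPKM.

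FACIT collagens sit on the surface of fibrils and were close to even as a sum, at 615 FPKM in the old and 601 in the young library, a ratio of 1.02. Col12a1, found on type I fibrils, was at 417 FPKM in old and 372 in young, a ratio of 1.12 [1.11 to 1.14]. Col16a1 was at 193 FPKM in old and 224 in young, a ratio of 0.860 [0.833 to 0.889]. Col20a1 was at 2.26 FPKM in old and 3.24 in young (ratio 0.695 [0.542 to 0.890]), and Col9a3, a chain of cartilage type IX collagen, at 1.19 and 1.36 FPKM on 34 and 35 reads (ratio 0.876 [0.530 to 1.45]). Their ratios spread on both sides of 1. Among those under 1 FPKM, Col22a1 had 33 reads in old and 11 in young, Col9a2 9 and 12, Col19a1 0 and 2, and Col14a1 1 and 0, and Col9a1 had none in either.

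Multiplexins, whose C-terminal ends release antiangiogenic fragments, were the class with both members called higher. Col15a1 (ENSMUSG00000028339, chromosome 4, 47208161 to 47313167) was at 5.34 FPKM on 188 reads in the old and 1.20 FPKM on 38 reads in the young library, a ratio of 4.46 [3.13 to 6.50] and a log2 ratio of 1.53. Col18a1 (ENSMUSG00000001435, chromosome 10, 77052178 to 77166548), whose fragment is endostatin, was at 6.85 FPKM on 418 reads in old and 2.71 FPKM on 149 reads in young, a ratio of 2.53 [2.09 to 3.07] and a log2 ratio of 1.08. Measured protein-coding genes with lower ratios made up 99.4% for Col15a1 and 98.5% for Col18a1.

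Both multiplexins are also made by vessels and epithelia. The 5 endothelial markers summed to 0.323 FPKM in the old and 0.357 in the young library, none reached 1 FPKM, and Emcn had 0 reads in both. Of the 4 epithelial markers, which summed to 3.04 FPKM in old and 0.478 in young, Krt14 was measured (2.39 and 0.391), Cdh1 was at 0.649 and 0.0872, and Epcam and Krt5 had 0 reads in both. The part of epithelial cells in the multiplexin values was not tested.

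The remaining classes were near the limit of detection. The transmembrane chains summed to 37 reads in the old and 23 in the young library, with 27 and 14 for Col17a1 of epithelial hemidesmosomes, 9 and 9 for Col23a1, 1 and 0 for Col25a1, and none for Col13a1. Col7a1, the anchoring fibril chain of skin, had 55 reads in old and 37 in young, Col28a1 had 8 and 1, and Col26a1 had 3 and 0. For those of these chains that had reads, the counting interval of the ratio held 1. Among the chains of every class under 1 FPKM, only the FACIT chain Col22a1 had an interval that left out 1. Its ratio was 2.71 [1.33 to 5.93] and its log2 ratio of FPKM + 1 was 0.29. Col9a1, Col13a1, Col4a4 and Col6a5 had no reads in either library, which for Col9a1 allows up to 0.0771 FPKM in old and 0.0855 in young.

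Of 66 listed genes that make or handle collagen 51 were measured, and 1 was called higher and 1 lower, against 1.97% higher and 0.868% lower over all genes. Their median log2 ratio was −0.07, equal to that of all genes, and the counting interval lay above 1 for 16, below 1 for 24 and held 1 for 11. Over 12554 genes it lay above 1 for 20.6% and below 1 for 33.5%. Those genes were not matched for read number, and more reads give narrower intervals, so these counts do not set the pathway genes apart. Among 19 measured genes for folding and hydroxylation, P3h2, a prolyl 3-hydroxylase, was called higher at 43.8 FPKM in old and 8.40 in young (log2 ratio 2.25), though 28.4% of its exon bases are overlapped by another gene. P4ha1, a catalytic subunit of prolyl 4-hydroxylase, was at 74.6 FPKM in old and 57.6 in young, while the isomerases Fkbp14 (57.8 and 96.1) and Fkbp7 (46.3 and 66.6) were lower in old. Serpinh1, the collagen chaperone HSP47, named after its value was seen, was at 927 FPKM in old and 1163 in young, a ratio of 0.796 [0.783 to 0.810], near the 0.792 of Col1a1.

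Export and propeptide cleavage had 14 of 19 genes measured, none called and a median of −0.11. Its highest log2 ratios were those of the propeptide proteases Adamts14 (1.32 FPKM in old and 0.956 in young) and Adamts2 (14.5 and 12.5), and its lowest those of Klhl12 (6.19 and 8.65), a ubiquitin ligase adaptor for large transport carriers, and Creb3l1 (35.9 and 43.4), a transcription factor of secretion. None of these reached 2-fold.

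Lysyl oxidases, which cross-link secreted collagen, had a median log2 ratio of 0.41 over 4 measured of 5, with none called. That median lies between 2 higher genes and 2 even ones, and was 0.04 with no filter on low values, which adds Loxl2 with 3 reads in old and 1 in young. Lox was at 107 FPKM in the old and 61.9 in the young library (log2 ratio 0.78) and Loxl1 at 17.9 and 9.47 FPKM (0.85), while Loxl3 (0.04) and Loxl4 (−0.01) were even. Of the receptors 8 of 11 were measured, none was called and the median was −0.05. Adgrg1, a receptor for type III collagen, was at 4.46 FPKM in old and 2.58 in young and the uptake receptor Mrc2 at 145 and 117, against Itga1 at 5.80 and 9.62 and Itga10 at 8.45 and 10.3, both integrin subunits. Another gene overlaps 33.5% of the exon bases of Itga10, and 11.9% of the sequence words of Itga1 occur in another gene.

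Of 11 breakdown genes 6 were measured, with a median of −0.01. Mmp13, a collagenase of bone, was called lower, at 5.84 FPKM in the old and 15.3 in the young library, a ratio of 0.383 [0.332 to 0.440]. The gelatinase Mmp9 was at 29.5 FPKM in old and 16.5 in young (log2 ratio 0.80), the membrane protease Mmp14 at 412 and 376 (0.13), and Pepd, which splits proline dipeptides, had a log2 ratio of −0.22. Mmp9 and Mmp13 thus lay on opposite sides of 1.

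Collagen mRNAs are known targets of the miR-29 family, whose members share the seed (bases 2 to 8, in capitals).
mmu-miR-29a-3p: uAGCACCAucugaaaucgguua
mmu-miR-29b-3p: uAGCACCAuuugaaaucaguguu
mmu-miR-29c-3p: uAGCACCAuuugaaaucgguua
These RefSeq sequences carry the GRCm38.p6 build, and the match to the seed is TGGTGCT, searched on the mRNA strand of the 3′ UTR of each gene's longest coding transcript. Sites of 5 chains are shown with their flanks, the match in capitals.
Col1a1: gtgggaaggaatttcTGGTGCTatagaag
Col3a1: ttcaaaatgtctcaaTGGTGCTataataa
Col5a2: cttttcttttaatgaTGGTGCTaaaatta
Col4a1: gccaccgtcacaacaTGGTGCTactcccc
Col15a1: atccaatccacatatTGGTGCTagattct
The match stood in 17 of 24 measured chains with a 3′ UTR (70.8%), against 16.0% of 10851 other measured protein-coding genes, with median 3′ UTR lengths of 1208 and 1174 bases. Col5a1 held 4 matches and Col5a3 and Col4a5 held 3 each, whereas Col1a2 and Col6a1 held none, and Col18a1 and Col6a3 had no 3′ UTR in the transcript used. The median log2 ratio was 0.10 over the 17 measured chains with a match and −0.11 over the 7 without, and in the other genes it was −0.08 with and −0.06 without. A match is a stretch of letters, and miRNA levels were not analysed here.

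**Figure D5:**
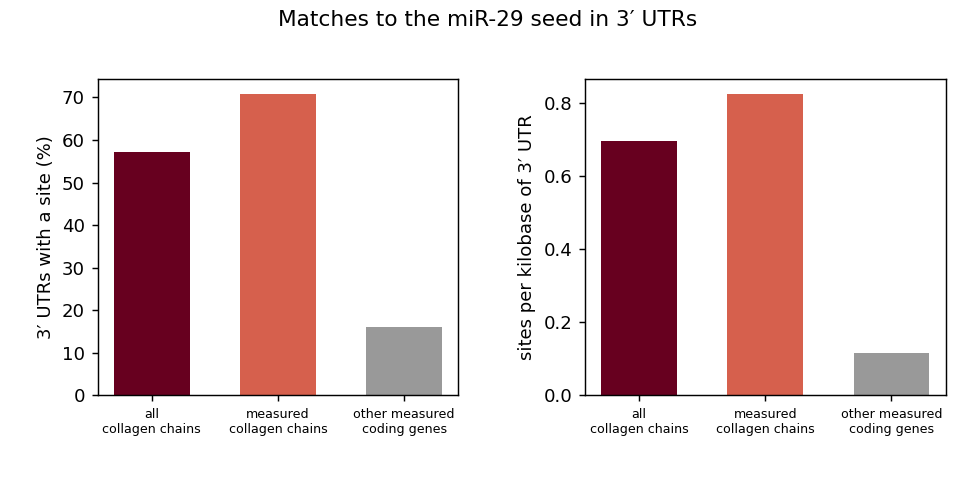
Bars give the share of genes whose 3′ UTR holds a match to the miR-29 seed (left, %) and the matches per kilobase of 3′ UTR (right), for all collagen chains, measured chains and other measured coding genes. Measured chains stand at 70.8% and 0.824 per kilobase, against 16.0% and 0.116 in the other genes.

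Promoters were searched for common boxes. RefSeq windows from 250 bases before the start were found for 35 of the 44 chains, 38 windows in all. Col1a1, Col2a1, Col5a2 and Col12a1 were among the chains without a window. The letters GGGCGG, on either strand, stood in 57.9% of them, against 32.7% of 32851 promoter windows. Those windows include genes that were not measured, and GC content was not matched. CCAAT stood in 34.2% against 33.8%, and TATAAA in 13.2% against 12.4%, both on either strand, so these were about as common as in promoters at large.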

How the data were processed

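RNA was measured in 1 library of old and 1 of young apoptotic osteoblasts. The deposited values are FPKM per gene, made by the authors; the build mm10 and the tools STAR, HTSeq, fastp and edgeR are named, per the submitters' processing notes. Not given in the sources used here: tool roles, versions and whether counting used strand. Libraries were made from Trizol RNA with a U-mRNASeq kit, per the labels' protocols.

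Members were matched to GENCODE M21 (GRCm38), which held 55227 of the 55487 identifiers. Reads were worked out from FPKM with the average length over the transcripts annotated to each gene: 97.6% of values above 0 came out whole within 0.01, among them both values of 42 of the 44 chains. Depth was 18114336 reads in old and 16333396 in young. Libraries were compared by log2(FPKM + 1), old minus young, in genes averaging at least 1 FPKM, and called at 2-fold. Ratios of FPKM carry exact Clopper-Pearson 95% intervals, and a count of 0 allows 3 reads. Both cover counting error only, and are too narrow where PCR copies, which are not independent molecules, are among the reads. With 1 library per group no test was run.

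At most 5.29% of a chain's 50-base sequence words occurred in another gene, and at most 6.07% of its exon bases lay under one. Named genes are every chain and, in each pathway list, the genes called and the 2 highest and 2 lowest; of the markers, the most abundant and those without reads, with others named beside them after their values were seen. Members and lists were chosen with earlier results of these data known. Alternatives were the pseudocount, the filter, the scaling and the gene length. Python 3.11.15, numpy 2.4.6, pandas 2.3.3, scipy 1.17.1, matplotlib 3.10.9 and bedtools 2.31.1 were used, and the calculation was checked on simulated data.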

Additional observations from a re-analysis of the deposited data

How the results depend on the processing

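With 1 library per group no library could be left out. No paired analysis was possible because each group has 1 library and no test was run. The 2 chains called higher and 1 called lower were 3 and 1 with a pseudocount of 0.1 FPKM, which added Col24a1, and 0 and 0 both with a pseudocount of 5 FPKM and among the 20 chains with a mean of at least 10 FPKM, since the called chains are low. With the pseudocount of 5 FPKM the pathway lists had 0 genes called lower. Of the 26 measured chains 24 kept their sign under every pseudocount and scaling tried, and Col8a2 and Col4a2 did not. The ratio of the summed FPKM, 0.862, was 0.902 when rescaled to a median log2 ratio of 0, 0.859 when the libraries were scaled to totals that leave out the 10 most abundant genes, 0.898 with the length of the longest coding transcript (chosen after the data were seen) and 1.18 when Col1a1 and Col1a2 were left out of the sum. The median of the lysyl oxidases, 0.41, was 0.04 with no filter on low values. The collagen share of reads without these chains was 1.58% in old and 1.32% in young. Centring at the median changed the calls over all 12561 genes measured to 289 higher (2.30%) and 85 lower (0.677%), from 248 and 109. A pseudocount of 0.1 FPKM gave 408 (3.25%) and 236 (1.88%), and 5 FPKM gave 101 (0.804%) and 20 (0.159%). Raising the filter to 10 FPKM left 8264 genes, of which 106 (1.28%) were called higher and 27 (0.327%) lower. At shares this low, 0 calls among 20 or 26 chains does not set the collagens apart from all genes.

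Chain ratios moved with the length used, in old and young alike. With the union of exons, Col1a1 over Col1a2 was 1.78 in old and 1.69 in young, Col4a1 over Col4a2 1.21 and 0.874, Col5a2 over Col5a1 1.03 and 1.14, Col6a1 over Col6a2 2.41 and 2.68, and Col6a3 over Col6a1 0.139 and 0.147. With the longest coding transcript they were 0.846 and 0.804, 1.33 and 0.961, 1.48 and 1.64, 1.44 and 1.60, and 0.154 and 0.163 in the same order.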

Other observations

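Proteins outside the collagen family can also hold a collagen-like stretch. Of 32 genes listed by hand as such or as their relatives, after the data were seen and without a check of their sequence, 9 were measured. None was called at 2-fold, where over all genes 1.97% were called higher and 0.868% lower. Their median log2 ratio was −0.23, against −0.07 for all genes. C1qtnf6, a secreted relative of complement C1q, was at 41.2 FPKM in the old and 79.9 in the young library, a ratio of 0.516 [0.479 to 0.556]. The other 4 genes lower in old had ratios of 0.752 for C1qtnf12, 0.803 for Scara3, 0.809 for C1qtnf3, whose interval of 0.648 to 1.01 held 1, and 0.838 for C1qtnf1. Emilin2, an elastic fibre glycoprotein, was at 67.0 FPKM in old and 37.9 in young, a ratio of 1.77 [1.64 to 1.91], and Emilin1 at 164 and 142 FPKM. The scavenger receptor Scara5 was at 39.5 FPKM in old and 24.1 in young, a ratio of 1.64, and Colec12 at 75.7 and 56.2 FPKM, a ratio of 1.35. The 3 chains of C1q itself, C1qa, C1qb and C1qc, had 0 reads in both libraries.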
